A study of Mus musculus with 6 samples.

Results

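The genes described here are the semaphorins, the ephrins and the Slits, which are ligands that steer cells and axons, together with their plexin, neuropilin, Eph and Robo receptors, measured by RNA-seq in cultured mouse satellite cells (SCs). They were chosen by a rule on gene symbols, with earlier results of these data known. The symbols took in 60 genes, of which 55 had more than 10 counts in at least 2 of the 6 libraries and were tested, out of 17348 tested genes and 35976 genes in all. The tested members are 19 of 20 semaphorins, 9 of 9 plexins, 2 of 2 neuropilins, 11 of 14 Eph receptors, 8 of 8 ephrins, 3 of 3 Slits and 3 of 4 Robos. The remaining 5 genes (Sema5b, Epha5, Epha8, Epha10 and Robo4) had between 0 and 11 counts in every library. NF-YA is the regulatory subunit of the trimeric transcription factor NF-Y. The series compares 3 NF-YAcKO libraries with 3 NF-YAfl/fl libraries. NF-YAcKO mice carry floxed NF-YA alleles and a tamoxifen-inducible Cre driven by Pax7, so that recombination takes place in Pax7-expressing cells, and the NF-YAfl/fl controls carry the floxed alleles without Cre. Both genotypes received tamoxifen, given as 5 daily injections at 20 mg/ml. The labels give an age of 5 to 7 weeks and the study's methods 6 to 8 weeks. The muscles were taken 7 days after the last injection, the SCs were enriched by magnetic depletion of cells with CD31, CD45, CD11b or Sca1, and RNA was made after 4 days in growth medium.

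Guidance ligands are secreted or held on the cell surface, and a neighbouring cell reads them through receptors that act on the actin cytoskeleton and on adhesion. Class 3 semaphorins are secreted and mostly signal through a neuropilin with an A-type plexin, whereas the other vertebrate semaphorins are bound to the membrane and contact plexins directly. Ephrins and Eph receptors are both anchored in membranes and signal on cell contact, in both directions, and secreted Slits repel cells that carry Robo receptors. In muscle these families are known from the routing of motor axons, from myoblast migration and alignment, and from the vessels and nerves that reach the fibers.

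Library totals were between 26936230 and 41118984 expected counts, at which 3 counts correspond to 0.0730 to 0.111 CPM (counts scaled to a common library total). The deleted NF-YA allele, an entry that the authors added to the transcripts, received 22.3% to 34.2% of the Nfya counts in NF-YAcKO and 0 counts in every NF-YAfl/fl library. The SC markers Pax7 and Myod1 were present in every library. Pax7 was at 145, 165 and 201 CPM in NF-YAcKO and at 73.5, 87.5 and 105 CPM in NF-YAfl/fl. Myod1 was at 509, 627 and 565 CPM in NF-YAcKO and at 361, 295 and 1146 CPM in NF-YAfl/fl libraries 1, 2 and 3. The 12 satellite cell and myoblast genes to which both belong, led by Des, summed to 1712 to 1859 CPM in NF-YAcKO and 2386 to 4026 CPM in NF-YAfl/fl. Of the 9 tested, Cdh15 and Des fell (log2 fold changes -1.78 and -2.09), whereas Pax7 (0.94, FDR = 0.00624) was not called. At an FDR under 0.05 and any fold, 3 of the 9 were lower (Cdh15, Itga7 and Des) and 3 higher (Pax7, Vcam1 and Sdc4). Over all tested genes 18.9% were lower and 19.7% higher by that rule. The summed level of 18 differentiated muscle genes was 712 to 1580 CPM in NF-YAcKO and 52069 to 63972 CPM in NF-YAfl/fl, and all 18 fell. The sum of 15 macrophage genes, led by Lyz2, was 149 to 294 CPM in NF-YAcKO and 7.06 to 17.7 CPM in NF-YAfl/fl, and 11 of the 13 tested rose, although the magnetic depletion targets CD45 and CD11b. The sum of 13 proliferation genes was 2745 to 2931 CPM in NF-YAcKO and 975 to 1643 CPM in NF-YAfl/fl. No marker gene was at 0 in all 6 libraries. NF-YAfl/fl library 3 stood apart in the 12 markers of fibro-adipogenic progenitors (FAPs), the mesenchymal cells between the fibers, whose sum was 188 CPM there, 606 and 749 CPM in NF-YAfl/fl libraries 1 and 2 and 452 to 544 CPM in NF-YAcKO. That library was also the highest in Myod1 and in the satellite cell and myoblast sum (4026 CPM, against 2936 and 2386 CPM in NF-YAfl/fl libraries 1 and 2). Xist was at 836 to 852 CPM in NF-YAcKO and at 0.306 to 0.475 CPM in NF-YAfl/fl, and the Y-linked Ddx3y at 0.0470 to 0.0957 against 80.9 to 88.6 CPM, while the methods name male mice. Genotype, sex-linked expression, the differentiation genes and the macrophage genes all part the same libraries and cannot be told apart in the values below, and in bulk RNA fewer cells of a type and less RNA per cell cannot be told apart either.

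In NF-YAcKO SCs 12 guidance genes fell and 1 rose. The genes that fell were the class 3 semaphorins Sema3b, Sema3c, Sema3d and Sema3e, the class 4 semaphorin Sema4d, the class 6 semaphorins Sema6a, Sema6b and Sema6c, the receptors Plxna2, Ephb1 and Ephb3, and the ligand Slit1. The gene that rose was Robo3, which passed the count filter through its NF-YAcKO libraries alone (24, 26 and 71 counts against 1, 4 and 2) and lost its call when any library other than NF-YAfl/fl library 3 was left out (FDR = 0.0104 to 0.0208). Calls rest on edgeR's quasi-likelihood test over all 17348 genes, at an FDR (Benjamini-Hochberg) below 0.01 together with a change of over 1 on the log2 scale in either direction. By this rule 21.8% of the 55 members were lower and 1.82% higher, where over all tested genes 7.67% were lower and 4.65% higher. At the median of the members the log2 fold change was -0.25, and at that of all tested genes it was -0.016. Of the 30 ligands 9 fell and 0 rose, and of the 25 receptors and co-receptors 3 fell and 1 rose. At an unadjusted p under 0.05 edgeR gave 9 ligands higher and 12 lower, DESeq2 called 2 ligands higher and 10 lower, and limma on log2(TPM + 1) called 0 higher and 8 lower. Over all tested genes DESeq2 called 986 higher and 1804 lower, and limma on log2(TPM + 1) called 231 and 704. The share of all tested genes at an unadjusted p under 0.05 was not counted, here and for the classes below. At an FDR under 0.05 and any fold, 18 members were lower and 12 higher, against 18.9% and 19.7% of all tested genes. Without overlap between the genotypes, 19 members had every NF-YAcKO library below and 14 every NF-YAcKO library above, against 26.2% and 29.1% of all tested genes.

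**Figure D1:**
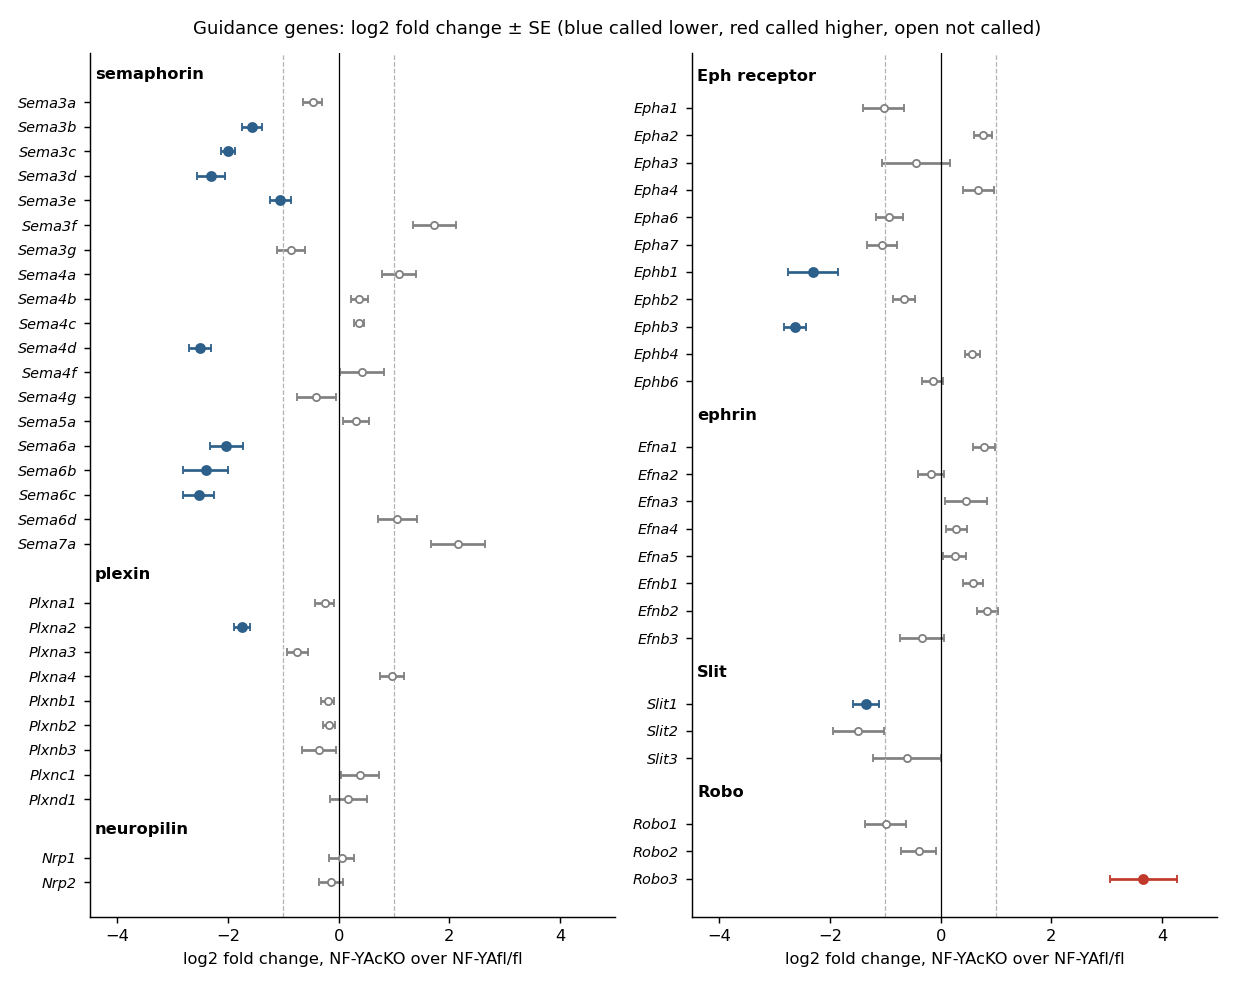
Log2 fold change (NF-YAcKO over NF-YAfl/fl) of the 55 tested guidance genes by family, with the standard error as bars, n = 3 libraries per genotype. Dashed lines mark log2 fold changes of -1 and 1. The 12 filled blue points (called lower) lie between -2.63 and -1.05, and the 1 filled red point (called higher, Robo3) lies at 3.66.

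The number of calls depended on the libraries used. The calls of 6 members (Sema3c, Sema3d, Sema4d, Sema6c, Plxna2 and Ephb3) were made under all 16 alternatives in tools, filters, thresholds and libraries. Without NF-YAcKO library 1, 2 or 3 the number of members called lower was 7, 6 and 7, and without NF-YAfl/fl library 1, 2 or 3 it was 8, 12 and 14. No called member changed its sign under any of these 16 alternatives, but much of this was fixed in advance. The looser FDR of 0.05 and glmTreat keep the log2 fold changes of the main fit, so that neither could change a sign. The looser FDR could also not lose a call made at 0.01. As the genotypes did not overlap in any called member, leaving out a library could hardly reverse its direction.

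NF-Y binds the pentanucleotide CCAAT, and the promoters of the members were read for these letters. In RefSeq promoter windows of GRCm38.p6, from 250 bases before to 50 bases after a gene's start, 53 of the 60 genes had an entry (Sema3b, Sema3f, Sema6a, Plxna1, Plxna4, Efnb3 and Slit1 had none). CCAAT on either strand, which reads as CCAAT or ATTGG on the gene's strand, was in a window of 16 of the 48 tested members with an entry (33.3%) and of 11096 of all 27025 genes (41.1%). Within 150 bases before the start the shares were 22.9% and 27.7%. Among the members called lower it was in 5 of 9, which are Sema3d, Sema4d, Sema6b, Sema6c and Ephb1, and the 1 member called higher, Robo3, had none. The stretches below show the letters in these 5 members and in Efnb2 and Ephb4, a ligand and a receptor that were not called and lay higher in NF-YAcKO, so that both directions can be compared. Each has 29 bases on the gene's strand, 5′ to 3′, with the 5 letters in capitals, and their first letter lies 75 and 23 bases before the start for Sema6c, 100 and 65 for Ephb1, 189 for Sema3d, 37 for Sema4d (whose 3 windows hold further matches), 215 for Sema6b, 95 and 65 for Efnb2 and 143 for Ephb4.
Sema6c, chr3:95160333-95160361 (+): tcttgtagtattATTGGtgaagaggtggc
Sema6c, chr3:95160385-95160413 (+): gcttagtattccATTGGgcggcgggcccg
Ephb1, chr9:102354777-102354805 (-): tgctcgcgcctgATTGGatgagggaattt
Ephb1, chr9:102354742-102354770 (-): tttgattccttgATTGGacaggaggtgtt
Sema3d, chr5:12382965-12382993 (+): tcttccaaggcaATTGGaatttttaagtg
Sema4d, chr13:51739467-51739495 (-): gggtccatttctATTGGaagatgggttct
Sema6b, chr17:56134051-56134079 (-): tgcctagaatccCCAATgagggtctgggg
Efnb2, chr8:8661321-8661349 (-): cgggaatgctgcCCAATcagcgcgcgctc
Efnb2, chr8:8661291-8661319 (-): cggcgcggcgagCCAATgggctgcgtttg
Ephb4, chr5:137349954-137349982 (+): gcagcataggagCCAATcagctccccgtg
The letters occur on either strand and in members of both directions. A match is a description of the window and not a binding site.

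Of the 7 secreted class 3 semaphorins 4 fell, 0 rose and 3 were not called, 1 of which (Sema3f) lay higher in every NF-YAcKO library (edgeR: 6 lower and 1 higher at an unadjusted p under 0.05, DESeq2: 4 lower and 1 higher), and the TPM of all 7 (transcripts per length, on a common total) summed to 32.2 ± 3.13 in NF-YAcKO and 67.2 ± 11.2 in NF-YAfl/fl (SD, n = 3, no overlap, p = 0.1 in an exact two-sided permutation test, which cannot go lower with 3 libraries per genotype). Sema3c, known for guiding neural crest cells into the outflow tract of the heart, was at 15.1, 14.1 and 11.99 CPM in NF-YAcKO libraries 1, 2 and 3 and at 58.1, 52.1 and 54.0 CPM in NF-YAfl/fl libraries 1, 2 and 3. Libraries of the same genotype lay close together and far from the other genotype, and the log2 fold change was -1.998 (SE 0.12, FDR = 0.000130). Sema3d, which acts on endothelial and neural crest cells, was at 7.62, 4.78 and 8.77 CPM in NF-YAcKO and at 29.9, 32.6 and 42.4 CPM in NF-YAfl/fl. The highest NF-YAcKO library was far below the lowest control, with a log2 fold change of -2.31 (SE 0.26, FDR = 0.00110). Sema3c, Sema3d and Sema3e each have a single transcript in the files.

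Sema3e, a ligand that binds the plexin encoded by Plxnd1 without a neuropilin, had the highest mean TPM of the class (16.8). Its level was 61.8, 74.0 and 64.4 CPM in NF-YAcKO and 114, 123 and 179 CPM in NF-YAfl/fl. The genotypes did not overlap, and NF-YAfl/fl library 3 was the highest (log2 fold change -1.05, SE 0.18, FDR = 0.00543). This call is close to the thresholds: the FDR was 0.0241, 0.0189 and 0.0242 without NF-YAcKO library 1, 2 and 3 and 0.0104 without NF-YAfl/fl library 1, and the log2 fold change was -0.83 without NF-YAfl/fl library 3. Sema3b, which like other class 3 members can collapse growth cones, was at 4.85, 5.36 and 5.26 CPM in NF-YAcKO and at 14.5, 12.4 and 18.9 CPM in NF-YAfl/fl. Its NF-YAcKO libraries were nearly level with each other and all below the controls (log2 fold change -1.56, SE 0.19, FDR = 0.00149, and 0.0109 without NF-YAcKO library 2).

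The 3 remaining class 3 genes were not called. Sema3f, a ligand of the neuropilin encoded by Nrp2, was at 13.6, 4.87 and 7.22 CPM in NF-YAcKO and at 2.98, 2.44 and 2.31 CPM in NF-YAfl/fl. Every NF-YAcKO library was above every control, with NF-YAcKO library 1 far above the other two, and the log2 fold change was 1.73 (SE 0.39, FDR = 0.0130). It was called by DESeq2 (FDR = 0.000115) and when no filter was used (0.00566). Sema3g was at 1.12, 1.26 and 1.13 CPM in NF-YAcKO and at 2.18, 1.58 and 2.61 CPM in NF-YAfl/fl, which do not overlap (FDR = 0.0376). Sema3a, the best known repellent of the class and a ligand of the neuropilin encoded by Nrp1, was at 77.3, 80.0 and 85.2 CPM in NF-YAcKO and at 82.7, 130 and 121 CPM in NF-YAfl/fl. NF-YAcKO library 3 lay above NF-YAfl/fl library 1, so that the genotypes overlapped (log2 fold change -0.46, FDR = 0.0712).

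**Figure D2:**
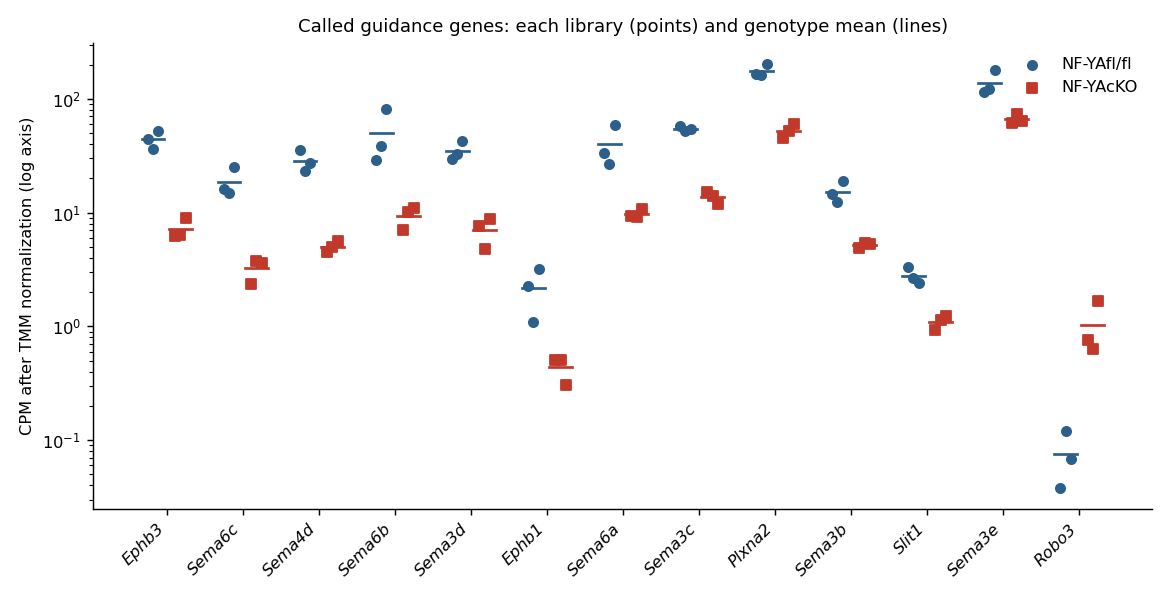
Level in CPM (log axis) of the 13 called guidance genes in each library, circles for NF-YAfl/fl and squares for NF-YAcKO, with lines at the genotype means, n = 3. Genes are ordered by log2 fold change from Ephb3 (-2.63) to Robo3 (3.66), and in each of them the genotypes do not overlap.

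On GRCm38, Sema3c (17574281 to 17730268, plus strand), Sema3d (12383385 to 12588948, plus) and Sema3e (14025276 to 14256689, plus) lie on chromosome 5. On chromosome 9 lie Sema3b (107597674 to 107609229), Ephb1 (101922128 to 102354693) and Robo3 (37415669 to 37433246), all on the minus strand. Sema4d is on chromosome 13 (51685529 to 51793747, minus), Sema6a on chromosome 18 (47235598 to 47368870, minus), Sema6b on chromosome 17 (56123085 to 56140343, minus) and Sema6c on chromosome 3 (95160457 to 95174024, plus). Plxna2 is on chromosome 1 (194618218 to 194816869, plus), Ephb3 on chromosome 16 (21204755 to 21223305, plus) and Slit1 on chromosome 19 (41600257 to 41743665, minus). Values are summed over all transcripts of a gene, and so over its exons and UTRs.

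Class 4 semaphorins are transmembrane proteins, and 1 of 6 fell. Sema4d, the ligand of the plexin encoded by Plxnb1 and known in immune cells and bone, was at 4.50, 4.95 and 5.62 CPM in NF-YAcKO and at 35.3, 23.0 and 27.0 CPM in NF-YAfl/fl. Each control was several times above each NF-YAcKO library (log2 fold change -2.50, SE 0.20, FDR = 0.000346). Its transcripts also differed in their share of the gene's TPM, as RSEM divides the reads among them: the transcript of 3422 nt held 0%, 10.05% and 0% in NF-YAcKO and 58.0%, 37.38% and 46.96% in NF-YAfl/fl, with no overlap (exact permutation test, two-sided, p = 0.1). The split was unsteady between libraries, as the 4544-nt transcript of Sema4d went from 0% to 37.65% among the NF-YAcKO libraries. Over the 8 called members with at least 2 transcripts above 10%, Sema4d among them, 7 of 25 transcripts did not overlap between the genotypes. These 7 belong to Sema3b, Sema4d and Sema6c, and the share over the transcripts of all genes was not counted.

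The other class 4 genes were not called. Sema4c, a ligand of the plexin encoded by Plxnb2, was the class member with the highest mean TPM (11.1) and was at 41.0, 42.2 and 37.9 CPM in NF-YAcKO against 31.3, 32.7 and 30.1 CPM in NF-YAfl/fl. These ranges do not overlap although the difference is small (log2 fold change 0.36, SE 0.09, FDR = 0.0217). Sema4a was at 2.04, 1.18 and 1.62 CPM in NF-YAcKO and at 0.573, 0.862 and 0.814 CPM in NF-YAfl/fl, again without overlap (log2 fold change 1.09, FDR = 0.0303). Sema4b (0.37), Sema4f (0.42) and Sema4g (-0.40) had small log2 fold changes with FDRs of 0.0985, 0.427 and 0.399, as had Sema5a, the 1 tested class 5 gene (0.31, FDR = 0.326).

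In class 6, transmembrane ligands of A-type plexins, 3 of 4 genes fell and the remaining gene lay the other way. Sema6c was at 2.36, 3.76 and 3.57 CPM in NF-YAcKO and at 16.3, 14.9 and 24.9 CPM in NF-YAfl/fl (log2 fold change -2.52, SE 0.28, FDR = 0.00109). It had the largest decrease of all semaphorins, and its genotypes were far apart. Sema6b, which had the highest mean TPM of the class (8.77), was at 7.08, 10.1 and 10.9 CPM in NF-YAcKO and at 29.2, 38.7 and 81.0 CPM in NF-YAfl/fl (log2 fold change -2.40, SE 0.40, FDR = 0.00446). Sema6a, a ligand of the plexins encoded by Plxna2 and Plxna4, was at 9.25, 9.19 and 10.8 CPM in NF-YAcKO and at 33.3, 26.9 and 58.8 CPM in NF-YAfl/fl (log2 fold change -2.03, SE 0.29, FDR = 0.00272). In both genes NF-YAfl/fl library 3 was the highest and every control lay above every NF-YAcKO library. The FDR of Sema6b was 0.0198, 0.0234 and 0.01802 without NF-YAcKO library 1, 2 and 3, and that of Sema6a was 0.0142, 0.0177 and 0.0127 without these and 0.01004 without NF-YAfl/fl library 1.

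Sema6d, known from heart morphogenesis, was at 51.7, 56.1 and 51.5 CPM in NF-YAcKO and at 18.7, 41.5 and 15.95 CPM in NF-YAfl/fl. The NF-YAcKO libraries were level and all above the controls, of which library 2 was the highest (log2 fold change 1.06, SE 0.35, FDR = 0.0485). Without NF-YAfl/fl library 2 the log2 fold change was 1.61 (FDR = 0.000649) and Sema6d was called. The summed TPM of class 6 was 14.7 ± 0.810 in NF-YAcKO and 31.8 ± 7.67 in NF-YAfl/fl, and Sema6d held 64.5% ± 4.06 of it in NF-YAcKO and 16.2% ± 10.1 in NF-YAfl/fl (SD, n = 3, both without overlap, exact permutation test, two-sided, p = 0.1). Sema7a, a GPI-anchored ligand of integrins and of the plexin encoded by Plxnc1, was at 81.3, 93.1 and 90.8 CPM in NF-YAcKO and at 17.1, 34.6 and 7.5995 CPM in NF-YAfl/fl. All NF-YAcKO libraries were far above all controls, but the controls were spread over more than 3-fold, and the gene missed the threshold (log2 fold change 2.16, SE 0.48, FDR = 0.0133). It was called by DESeq2 (FDR = 2.53e-05), and by edgeR without NF-YAfl/fl library 2 (2.83, FDR = 0.00294) or library 3 (1.76, FDR = 0.00249) and with no filter (0.00503). The share of Sema7a in the TPM of all semaphorins was 31.4% ± 1.22 in NF-YAcKO and 6.05% ± 4.35 in NF-YAfl/fl (no overlap, exact permutation test, p = 0.1). The shares of genes in their classes, here and below, were chosen after their values were seen. They restate the levels of the same genes, as a share rises when the other genes of its class fall, and are no separate evidence.

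**Figure D3:**
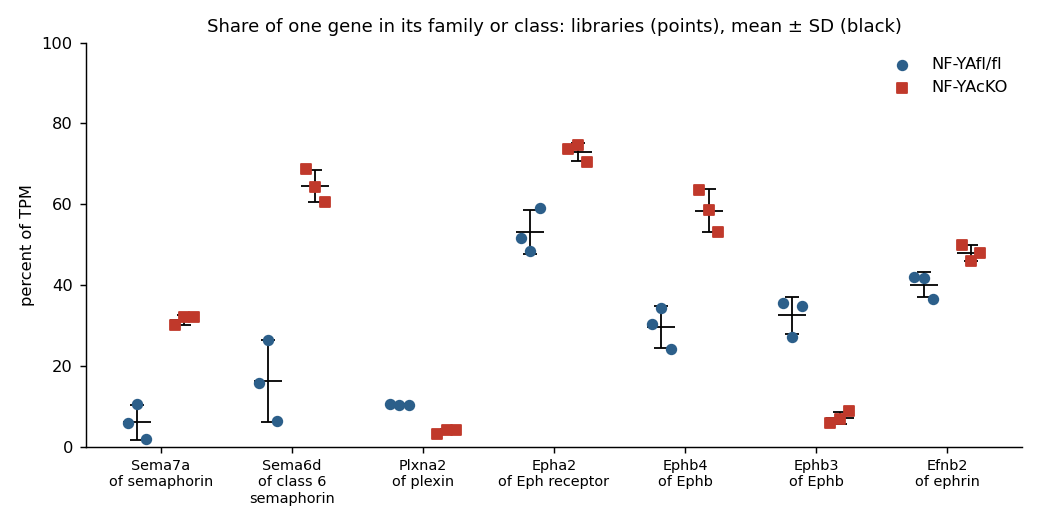
Share of 7 genes in the summed TPM of their family or class in each library, with mean ± SD in black, n = 3 per genotype. Sema7a, Sema6d, Epha2, Ephb4 and Efnb2 have higher shares in NF-YAcKO, and Plxna2 and Ephb3 have lower shares, in each case without overlap between the genotypes.

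The plexins, the receptors of the semaphorins, changed in 1 of 9 genes. Plxna2, a receptor of class 3 and class 6 semaphorins, was at 44.8, 52.5 and 60.1 CPM in NF-YAcKO and at 164, 163 and 203 CPM in NF-YAfl/fl. The genotypes were clearly apart (log2 fold change -1.75, SE 0.15, FDR = 0.000420), and its share of all plexin TPM was 3.80% ± 0.512 in NF-YAcKO and 10.5% ± 0.140 in NF-YAfl/fl. No plexin was called higher (edgeR: 1 at an unadjusted p under 0.05, DESeq2: 0). Plxna4 was at 22.2, 20.9 and 26.8 CPM in NF-YAcKO and at 13.2, 14.2 and 8.52 CPM in NF-YAfl/fl, without overlap (log2 fold change 0.96, SE 0.21, FDR = 0.0132). The X-linked Plxna3 was at 23.0, 24.1 and 25.5 CPM in NF-YAcKO and at 33.9, 34.9 and 53.4 CPM in NF-YAfl/fl, without overlap in the other direction (log2 fold change -0.75, SE 0.19, FDR = 0.0203). Together with the X-linked Plxnb3 and Efnb1 this gene lies on the chromosome on which Xist differs between the genotypes, and its part in these values was not tested.

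The most abundant plexins were not among those that changed. Plxna1, the A-type plexin with the highest mean TPM (64.6), was at 489, 449 and 498 CPM in NF-YAcKO and at 499, 492 and 720 CPM in NF-YAfl/fl, which overlap (log2 fold change -0.25, FDR = 0.264). Plxnb2, receptor of Sema4c, had a mean TPM of 53.7 and a log2 fold change of -0.17 (FDR = 0.239). Plxnb1, Plxnb3, Plxnc1 and Plxnd1 had log2 fold changes of -0.20, -0.35, 0.39 and 0.18 with FDRs of 0.189 to 0.701. In Plxnc1 and Plxnd1 NF-YAfl/fl library 3 was the highest of all 6 (10.4 and 114 CPM), and without it their log2 fold changes were 0.90 (FDR = 0.00281) and 0.68 (FDR = 0.00722), under the fold needed for a call. The neuropilins, co-receptors that class 3 semaphorins share with VEGF, were not called: Nrp1 was at 107, 103 and 118 CPM in NF-YAcKO and at 98.3, 143 and 74.1 CPM in NF-YAfl/fl, and Nrp2 at 89.3, 112 and 95.02 against 123, 128 and 75.1 CPM. In both genes the NF-YAcKO libraries lay inside the range of the controls (log2 fold changes 0.06 and -0.14, 0 of 2 at an unadjusted p under 0.05 in edgeR, 0 called by DESeq2).

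Among the Eph receptors 2 of 11 fell, both of class B. Ephb3, a receptor of B-type ephrins known from cell positioning in the gut crypt, was at 6.22, 6.30 and 8.91 CPM in NF-YAcKO and at 44.6, 36.4 and 52.2 CPM in NF-YAfl/fl. It had the largest decrease of all members, and no control came near the NF-YAcKO libraries (log2 fold change -2.63, SE 0.21, FDR = 0.000342). Ephb1, another receptor of B-type ephrins, was at 0.510, 0.507 and 0.306 CPM in NF-YAcKO and at 2.26, 1.10 and 3.19 CPM in NF-YAfl/fl, from 13 to 21 counts against 37 to 94. The genotypes did not overlap, at low counts (log2 fold change -2.30, SE 0.46, FDR = 0.00832). Its FDR was 0.0297, 0.0341 and 0.0353 without NF-YAcKO library 1, 2 and 3 and 0.0287 without NF-YAfl/fl library 1, and 152 exon bases are shared with a lincRNA on the opposite strand.

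Ephb4, whose pairing with Efnb2 separates veins from arteries, was at 71.3, 59.6 and 56.9 CPM in NF-YAcKO and at 40.0, 48.4 and 38.1 CPM in NF-YAfl/fl. The groups did not overlap (log2 fold change 0.57, SE 0.14, FDR = 0.0164). Ephb2 was at 60.8, 61.6 and 75.3 CPM in NF-YAcKO and at 81.8, 97.4 and 134 CPM in NF-YAfl/fl, without overlap in the other direction (log2 fold change -0.66, FDR = 0.0328), and Ephb6, which lacks kinase activity, had a log2 fold change of -0.15 (FDR = 0.575). The makeup of class B differed: Ephb3 held 32.5% ± 4.61 of the class TPM in NF-YAfl/fl and 7.12% ± 1.55 in NF-YAcKO, and Ephb4 held 29.7% ± 5.14 and 58.4% ± 5.28 (SD, n = 3, no overlap, exact permutation test, two-sided, p = 0.1). The summed TPM of class B was 27.4 ± 3.52 in NF-YAcKO and 38.8 ± 6.22 in NF-YAfl/fl, and that of class A was 97.5 ± 11.8 and 66.8 ± 11.2 (both without overlap, exact permutation test, p = 0.1).

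Class A was dominated by Epha2, the receptor of ephrin-A1 and the member with the highest mean TPM of all guidance genes (73.3). It was at 334, 312 and 279 CPM in NF-YAcKO and at 158, 163 and 226 CPM in NF-YAfl/fl, and held 72.8% ± 2.22 and 53.1% ± 5.45 of all Eph TPM. All NF-YAcKO libraries were above all controls (log2 fold change 0.76, SE 0.16, FDR = 0.0109). Epha6 and Epha7 were low and lay the other way: Epha6 was at 1.31, 1.33 and 1.60 CPM in NF-YAcKO and at 2.06, 3.06 and 2.92 CPM in NF-YAfl/fl (log2 fold change -0.93, FDR = 0.0227), and Epha7 at 1.53, 2.15 and 1.88 against 4.09, 4.76 and 2.75 CPM (-1.06, FDR = 0.0213). Neither overlapped, and Epha7 was called without NF-YAfl/fl library 3 (-1.26, FDR = 0.00388) and by DESeq2 (FDR = 0.00235). Epha1 had a log2 fold change of -1.03 (FDR = 0.0608), and of -1.31 (FDR = 0.00921) without that library. Epha4, known from limb motor axon choice, had a log2 fold change of 0.68 (FDR = 0.0984). No class A receptor was called (edgeR: 2 higher and 3 lower at an unadjusted p under 0.05, DESeq2: 0 higher and 1 lower).

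No ephrin was called in either direction (edgeR: 3 higher and 0 lower at an unadjusted p under 0.05, DESeq2 and limma: 0). The 3 that were higher at an FDR under 0.05 were Efnb2, Efnb1 and Efna1. Efnb2, the transmembrane ligand of Ephb4 and the most abundant ephrin (mean TPM 20.7), was at 124, 99.2 and 103 CPM in NF-YAcKO and at 62.9, 74.0 and 45.4 CPM in NF-YAfl/fl (log2 fold change 0.84, SE 0.19, FDR = 0.0137). The X-linked Efnb1 was at 55.4, 51.0 and 48.5 CPM against 35.6, 42.1 and 25.9 CPM (0.58, SE 0.18, FDR = 0.0405). Efna1, a GPI-anchored ligand of Epha2, was at 3.57, 3.81 and 3.62 CPM in NF-YAcKO and at 1.80, 2.47 and 2.10 CPM in NF-YAfl/fl (0.79, SE 0.20, FDR = 0.0208). In all 3 genes every NF-YAcKO library was above every control. Efna2, Efna3, Efna4, Efna5 and Efnb3 overlapped between the genotypes, with log2 fold changes from -0.33 (Efnb3) to 0.46 (Efna3) and FDRs of 0.276 to 0.588, and the most abundant of the A ephrins was Efna4 (mean TPM 3.35).

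Slit1 was the 1 Slit gene called. It was at 0.925, 1.13 and 1.22 CPM in NF-YAcKO and at 3.33, 2.65 and 2.41 CPM in NF-YAfl/fl. Every NF-YAcKO library was below every control (log2 fold change -1.34, SE 0.24, FDR = 0.00548). The FDR was 0.0296, 0.0298 and 0.0226 without NF-YAcKO library 1, 2 and 3 and 0.0198 without NF-YAfl/fl library 1, and limma on log2(TPM + 0.1) gave 0.0299. Slit2, the most abundant Slit (mean TPM 10.9), was at 50.6, 34.4 and 48.6 CPM in NF-YAcKO and at 168, 160 and 46.6 CPM in NF-YAfl/fl. NF-YAfl/fl libraries 1 and 2 were far above NF-YAcKO and library 3 was among its libraries (log2 fold change -1.49, SE 0.46, FDR = 0.0395). Without library 3 the log2 fold change was -1.89 (FDR = 0.000320) and Slit2 was called, as it was by DESeq2 (FDR = 0.00232).

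Slit3 was at 26.2, 12.1 and 13.7 CPM in NF-YAcKO and at 37.2, 35.2 and 6.79 CPM in NF-YAfl/fl. Library 3 of the controls was the lowest of all 6 (log2 fold change -0.61, FDR = 0.457). Epha3 was at 4.43, 5.41 and 9.31 CPM in NF-YAcKO and at 10.8, 13.3 and 2.17 CPM in NF-YAfl/fl, again with NF-YAfl/fl library 3 lowest (log2 fold change -0.45, FDR = 0.589). The FAP marker sum of that library was also the lowest of all 6 (188 CPM), and its part in the Slit2, Slit3 and Epha3 values was not tested. Between the genotypes, 1 of the 12 FAP markers (Lum) was called higher and 1 (Dpep1) lower. Over all 55 members, 5 were spread more than 3-fold over the NF-YAfl/fl libraries (Sema7a, Epha3, Slit2 and Slit3 with library 3 lowest, and Robo3) and 0 over the NF-YAcKO libraries, and the median ratio of the highest to the lowest library was 1.58 and 1.26. NF-YAfl/fl library 3 was the lowest of the controls in 23 of the 55 members and the highest in 24, so that it was extreme in both directions.

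**Figure D4:**
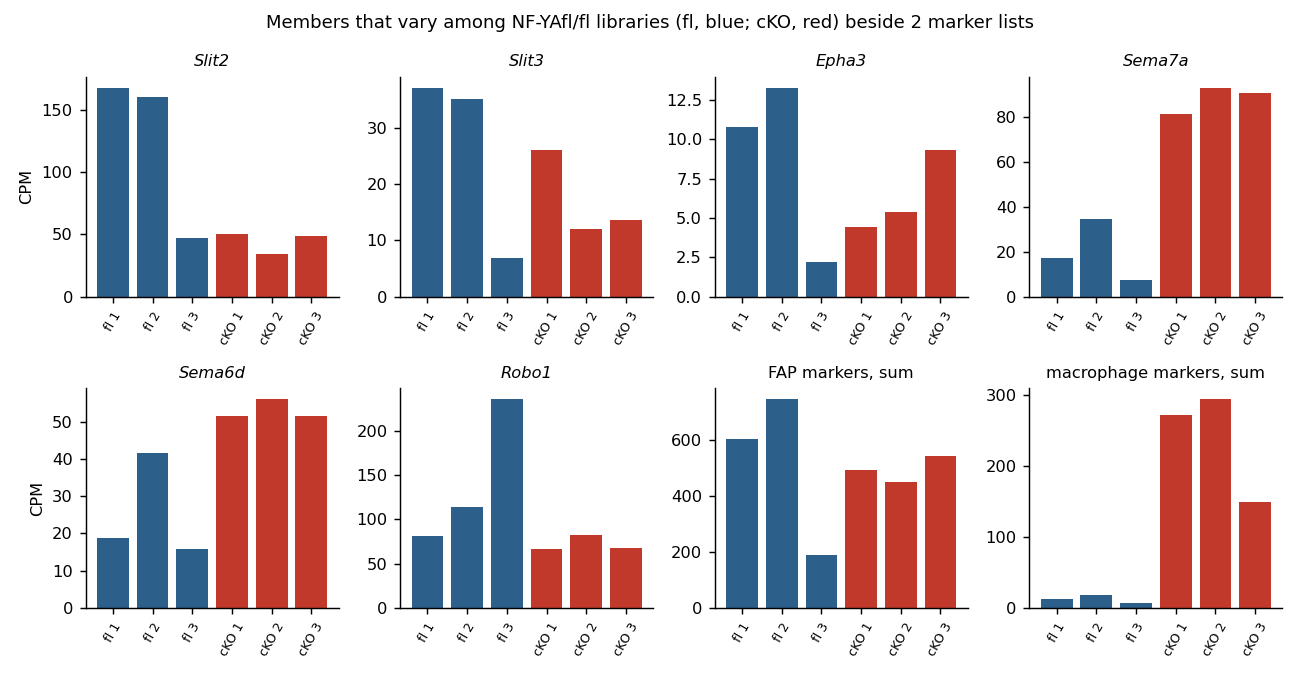
CPM in each library of 6 guidance genes that vary among NF-YAfl/fl libraries and the summed CPM of 2 marker lists, NF-YAfl/fl in blue and NF-YAcKO in red, with bars from 0. In NF-YAfl/fl library 3 Slit2 (46.6), Slit3 (6.79), Epha3 (2.17) and the FAP markers (188) are the lowest of the controls and Robo1 (236) is the highest.

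Robo1, the most abundant Slit receptor (mean TPM 15.0), was at 66.1, 81.9 and 67.7 CPM in NF-YAcKO and at 81.0, 113 and 236 CPM in NF-YAfl/fl. NF-YAfl/fl library 3, the lowest of the controls in Slit2 and Slit3, was the highest of all 6 libraries in Robo1, and library 1 lay among the NF-YAcKO libraries (log2 fold change -0.996, SE 0.37, FDR = 0.0723, and -0.44 without library 3). Robo2 overlapped as well (log2 fold change -0.40, FDR = 0.360). Robo3, a divergent Robo that commissural axons need to cross the midline, was the 1 member called higher. It was at 0.765, 0.627 and 1.67 CPM in NF-YAcKO and at 0.0382, 0.119 and 0.0679 CPM in NF-YAfl/fl, from 24, 26 and 71 counts against 1, 4 and 2. All NF-YAcKO libraries were above all controls, but the gene passed the count filter through its NF-YAcKO libraries alone, the 1 member of which this was true. The ratio of its summed counts per library size was 13.4 (95% exact counting interval 6.30 to 34.0). This interval pools the libraries of each genotype, covers counting error only and does not allow for that way of passing the filter, which favours a high ratio. Its log2 fold change was 3.66 (SE 0.61, FDR = 0.00437), and the call was lost when any library other than NF-YAfl/fl library 3 was left out, with FDRs of 0.0129, 0.0122 and 0.0122 without NF-YAcKO library 1, 2 and 3 and 0.0208 and 0.0104 without NF-YAfl/fl library 1 and 2. With limma on log2(TPM + 1) the FDR was 0.0321.

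Summed over whole families, levels per length were lower in NF-YAcKO for the semaphorins (102 ± 7.86 against 134 ± 24.2 TPM), the plexins (136 ± 16.8 against 174 ± 19.9) and the Robos (10.6 ± 0.124 against 20.7 ± 8.38), without overlap between the genotypes (SD, n = 3, exact permutation test, two-sided, p = 0.1 for each). The Eph receptors (125 ± 14.8 against 106 ± 17.4, p = 0.3), the ephrins (54.5 ± 8.47 against 37.1 ± 13.1, p = 0.2), the Slits (9.31 ± 3.18 against 23.6 ± 15.0, p = 0.3) and the neuropilins (38.8 ± 2.55 against 44.6 ± 20.4, p = 0.7) overlapped in the same exact permutation test. Single genes made up most of some sums. Robo1 held 93.0% ± 2.85 of the Robo TPM in NF-YAcKO and 97.0% ± 1.55 in NF-YAfl/fl (SD, n = 3). Plxna1 and Plxnb2 together held 78.3% ± 2.20 of the plexin TPM in NF-YAcKO and 74.7% ± 3.02 in NF-YAfl/fl. Robo1, Plxna1 and Plxnb2 were not called and overlapped between the genotypes in CPM. Per length, plexin and Eph sums were among the highest in both genotypes and Slit and Robo sums the lowest. None of these 7 tests can reach a p under 0.1. Single libraries moved the differences (NF-YAcKO minus NF-YAfl/fl): without NF-YAfl/fl library 2 that of the semaphorins went from -31.7 to -18.0 TPM, that of the Slits from -14.3 to -8.80 TPM and that of the Eph receptors from 19.3 to 29.3 TPM. Without NF-YAfl/fl library 3 the difference was -5.94 TPM for the Robos (-10.1 with all libraries), -22.8 TPM for the Slits, 11.3 TPM for the ephrins (17.4 with all) and -15.6 TPM for the neuropilins (-5.76 with all). The neuropilin difference was 4.74 TPM without NF-YAfl/fl library 2, and that of the Eph receptors was 11.02 TPM without NF-YAcKO library 1.

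**Figure D5:**
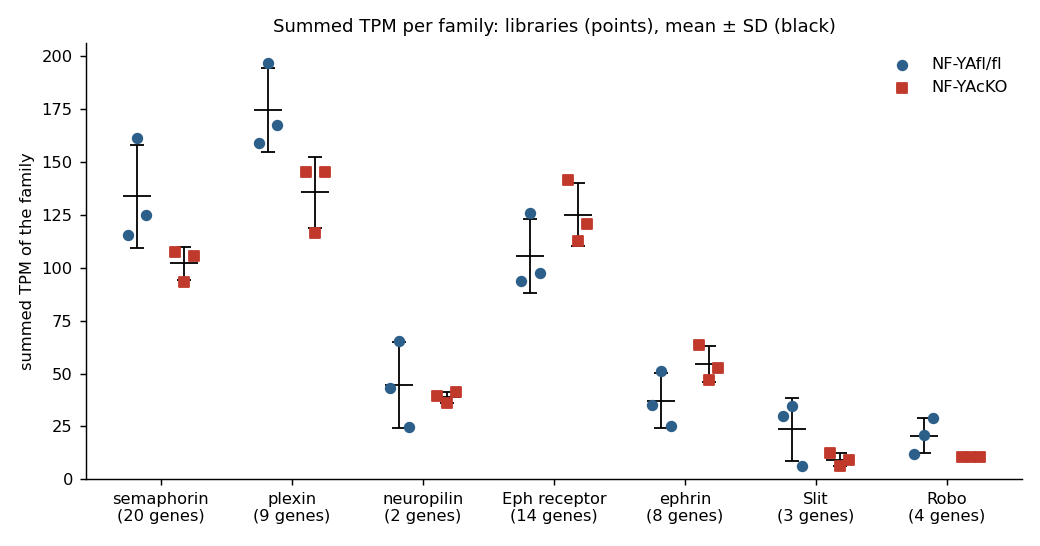
Summed TPM of each of the 7 families in each library, with mean ± SD in black, n = 3 per genotype. The semaphorin, plexin and Robo sums are lower in all NF-YAcKO libraries than in all NF-YAfl/fl libraries, and the other sums overlap.

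Genes that act inside the cell behind these receptors were examined as a list of 60 effectors, all of which were tested. Of these 1 rose and 5 fell (1.67% and 8.33%, against 4.65% and 7.67% of all tested genes), with a median log2 fold change of -0.11. Srgap1 and Srgap3, whose proteins bind Robo receptors, fell from 27.3 ± 7.01 to 10.2 ± 1.08 CPM (log2 fold change -1.42, FDR = 0.00310) and from 61.2 ± 6.11 to 16.9 ± 1.66 CPM (-1.86, FDR = 0.000178). Enah, an actin regulator of the Ena/VASP family, fell from 362 ± 94.5 to 94.1 ± 10.3 CPM (-1.95, FDR = 0.000874), the kinase Fyn from 147 ± 20.2 to 72.0 ± 3.22 CPM (-1.03, FDR = 0.00132) and Dpysl5, of the collapsin response mediators, from 2.95 ± 1.04 to 0.383 ± 0.159 CPM (-2.91, FDR = 0.00242). The exchange factor Vav3 rose from 7.85 ± 3.12 to 27.7 ± 2.42 CPM (1.82, FDR = 0.00293). The most highly counted effector, Grb10, was at 639 ± 10.7 CPM in NF-YAcKO and at 736 ± 249 CPM in NF-YAfl/fl and was not called. Leaving out a library gave 0 to 2 effectors called higher and 3 to 6 called lower.

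A second list held 29 cues and receptors of other guidance systems and co-receptors, of which 23 were tested. Of these 3 rose and 2 fell (13.0% and 8.70%, against 4.65% and 7.67% of all tested genes), so that the share that fell was near that of all genes. The netrin Ntn4 rose from 18.6 ± 1.04 to 40.9 ± 2.35 CPM (log2 fold change 1.14, FDR = 0.000518). Met, the receptor of hepatocyte growth factor and a partner of B-type plexins, rose from 70.3 ± 18.7 to 292 ± 32.5 CPM (2.05, FDR = 0.000730), and Kdr, the VEGF receptor that pairs with neuropilins, rose from 1.29 ± 0.201 to 8.20 ± 2.58 CPM (2.67, FDR = 0.00115). Dag1, which encodes dystroglycan, a binding partner of Slits, fell from 314 ± 80.2 to 112 ± 4.49 CPM (-1.48, FDR = 0.00172), and Flrt1 fell from 9.68 ± 1.61 to 3.42 ± 0.669 CPM (-1.50, FDR = 0.00273). Itgb1, the integrin chain with which Sema7a pairs and the most highly counted gene of the list, was at 1084 ± 28.5 CPM in NF-YAcKO and at 1095 ± 115 CPM in NF-YAfl/fl. Dag1 and Flrt1 both lost their call without NF-YAcKO library 1 (FDR = 0.0102 for Dag1 and 0.0152 for Flrt1) and without library 2 (0.0129 and 0.0159).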

How the data were processed

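RNA was measured in 6 libraries of SCs, 3 per genotype, and groups and replicate numbers were taken from the labels. Nothing in the labels says that replicates are separate mice or cultures, so that p-values measure the spread between these samples. Stranded libraries were made from 500 ng of total RNA and read as pairs of 75 bases. Per the authors' methods, Bowtie2 placed reads on mm10 transcripts and RSEM estimated abundances. The expected counts deposited by the authors are estimates that need not be whole, as RSEM divides reads shared by transcripts or paralogs. Whether strand was used in counting is not given in the sources used here. The deposited TPM values were scaled by the authors' software to effective length. The deposited percent values give each transcript's share of its gene's TPM.

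From these files, expected counts were rounded, and genes above 10 counts in 2 or more libraries entered edgeR 4.0.16 in R 4.3.3 (TMM, glmQLFit and glmQLFTest, genotype only, Benjamini-Hochberg adjustment). CPM are relative to TMM-scaled library sizes, and the SE is the log2 fold change divided by the square root of F. Family sums, shares and transcripts were compared with exact permutation tests in scipy 1.17.1. The fit was also run on simulated counts with known changes in a small set of well-counted genes. Many more genes change in these data, so that run gives no error rate for them. Depth per library was 26936230 to 41118984 counts, and the spread between 3 libraries limits most comparisons. Alternatives were DESeq2 1.42.0 (the study's tool), its size factors in edgeR, filterByExpr, no filter, limma 3.58.1 on log2(TPM + 1) and log2(TPM + 0.1), unrounded counts, an FDR under 0.05, glmTreat (log2 fold change 1), a block for the replicate number and leaving out each library.

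Members and gene lists were chosen with earlier results of these data known. Named members are all called ones, the most abundant of each family and class by mean TPM, and those at an FDR under 0.05 without overlap, with the others given by ranges. From the lists, called genes and the most highly counted gene are named. Sema4d, Efnb2 and other promoter stretches, the class shares and the spread of NF-YAfl/fl library 3 were picked after values were seen. Plots were drawn with matplotlib 3.10.9. Coordinates are those of GENCODE on GRCm38, and promoter sequences those of RefSeq on GRCm38.p6. No protein sequence was analysed here.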

Additional observations from a re-analysis of the deposited data

How the results depend on the processing

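Against 1 guidance gene called higher, DESeq2 called 3, no filter 3, limma on log2(TPM + 1) 0, an FDR under 0.05 5, glmTreat 0 and leaving out a library 0 to 2. Against 12 called lower, glmTreat called 6 and leaving out a library 6 to 14. Over all tested genes, 806 were higher, with 231 by limma on log2(TPM + 1), 361 on log2(TPM + 0.1), 97 by glmTreat and 177 to 890 without a library. Against 1331 lower, these gave 704 by limma on log2(TPM + 1), 510 by glmTreat, 2025 at an FDR under 0.05 and 523 to 1684 without a library. Effectors called higher numbered 0 in both limma fits and in glmTreat and 0 to 2 without a library, and those called lower 2 in glmTreat and 3 to 6 without a library. Other cues called lower numbered 1 in both limma fits, 0 in glmTreat and 0 to 2 without a library. Direction turned for 4 uncalled members: leaving out a library, the log2 fold change ran from -0.52 to 0.020 for Plxnb3, from -0.037 to 0.68 for Plxnd1, from -0.28 to 0.048 for Ephb6 and from -0.15 to 0.33 for Nrp1, which was at -0.0085 and -0.0042 in the limma fits. The difference of the neuropilin sums (NF-YAcKO minus NF-YAfl/fl) was -5.76 TPM with all libraries and ran from -15.6 TPM to 4.74 TPM when a library was left out, above 0 without NF-YAfl/fl library 2 alone. No scaling moved the median of all genes by over 0.1. The cause was not tested.

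With the replicate number as a block, 0 guidance genes were called higher and 9 lower, as Robo3, Sema3e, Ephb1 and Slit1 lost their call, and 1 of the other cues was called lower. Deviations of libraries with the same number correlated at 0.17, -0.07 and 0.05, and over all pairs the values ran from -0.14 to 0.17. The highest was that of the 2 libraries numbered 1. With 3 libraries per genotype, these values cannot tell whether the numbers pair the samples. NF-YAcKO library 2 correlated best with NF-YAfl/fl library 3 (0.10).

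Depth limits Robo3, Ephb1 and the 5 untested genes, which rest on few counts.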

Other observations

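Other marker lists were measured as well. The sum of 11 Schwann cell genes was 98.1 to 111 CPM in NF-YAcKO and 136 to 230 CPM in NF-YAfl/fl, with 5 of 10 tested genes higher and 1, the most highly counted (Erbb3), lower. The sum of 10 pericyte and smooth muscle genes, led by Acta2, was 826 to 980 CPM in NF-YAcKO and 1852 to 2136 CPM in NF-YAfl/fl, and 2 of 8 tested fell. The sums of the 12 endothelial genes (21.6 to 24.5 against 17.3 to 42.5 CPM) and of the 7 tenocyte genes (54.6 to 87.5 against 50.01 to 62.5 CPM) overlapped. Single genes in them differed: of the 9 tested endothelial genes Esam rose and Vwf fell. Of the 6 tested tenocyte genes Thbs4 rose and Scx fell. Of 13 proliferation genes 12 rose. The part of these cell types in the guidance gene values was not tested.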
